A study of Rattus norvegicus with 4 samples.

Results

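The semaphorins, plexins and neuropilins are the ligands and receptors of one family of guidance signals in the developing nervous system. Their genes were followed here in cultured rat cortical neurons carrying an shRNA (short hairpin RNA) against PHF6, a nuclear zinc-finger protein mutated in an X-linked form of intellectual disability. The 31 members were chosen by name, as probe sets of the array annotated to exactly 1 of these genes. They comprise 20 semaphorin ligands, 9 plexins and 2 neuropilins, and all 31 were found among 17245 named genes. Each gene was represented by 1 probe set, and only Sema4c had a second one.

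Expression was measured on 4 whole-transcript Affymetrix arrays of total RNA. In 2 arrays, labelled PHF6 knockdown, the neurons had received pLL3.7 lentivirus encoding PHF6shRNA-2, and in 2 arrays, labelled wild type, the same vector encoding a control shRNA. All neurons came from Sprague Dawley rat embryos at embryonic day 18 and were harvested 5 days after infection with no other treatment. Both PHF6 arrays carried the same hairpin, so loss of PHF6 and other effects of that hairpin cannot be told apart. The arrays are biological duplicates by title, and since no label ties them to separate cultures or litters, p-values cover the spread between these arrays, which may be technical.

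Semaphorins share an extracellular sema domain and turn or stop growing axons by binding plexins, transmembrane receptors whose intracellular part acts on small GTPases. Class 3 semaphorins are secreted, and most of them bind a plexin A through the co-receptors neuropilin 1 or neuropilin 2. Semaphorins of classes 4, 5 and 6 span the membrane and the class 7 semaphorin is held there by a lipid anchor. In the cortex the family is known for steering axons and dendrites, migrating neurons and synapse formation.

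Promoters are shown for 6 genes, which form the pairs described below: a ligand and a receptor that differed in opposite directions (Sema3e with Plxnd1, Sema7a with Plxnc1) and the neuropilins, which also differed in opposite directions. Each line holds 300 bases from RefSeq's GRCr8 annotation, from 250 bases before to 50 after the gene's start, written 5′ to 3′ on the gene's strand. Capitals mark GC boxes, GGGCGG or its reverse complement CCGCCC.
Sema3e, ligand of plexin D1, chr4:21510325-21510624, minus strand: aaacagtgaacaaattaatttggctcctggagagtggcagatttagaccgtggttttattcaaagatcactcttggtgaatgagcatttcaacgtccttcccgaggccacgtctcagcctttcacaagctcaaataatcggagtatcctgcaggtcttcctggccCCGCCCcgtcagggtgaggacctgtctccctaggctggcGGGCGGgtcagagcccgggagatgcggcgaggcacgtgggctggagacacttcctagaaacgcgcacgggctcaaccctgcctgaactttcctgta
Plxnd1, receptor of Sema3e, chr4:150715138-150715437, minus strand: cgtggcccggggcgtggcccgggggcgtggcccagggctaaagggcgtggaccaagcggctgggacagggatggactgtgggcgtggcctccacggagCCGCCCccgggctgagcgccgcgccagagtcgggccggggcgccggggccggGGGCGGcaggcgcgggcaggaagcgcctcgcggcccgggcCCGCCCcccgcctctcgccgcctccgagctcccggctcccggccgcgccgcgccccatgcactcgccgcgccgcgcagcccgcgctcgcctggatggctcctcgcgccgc
Sema7a, ligand of plexin C1, chr8:67244068-67244367, plus strand: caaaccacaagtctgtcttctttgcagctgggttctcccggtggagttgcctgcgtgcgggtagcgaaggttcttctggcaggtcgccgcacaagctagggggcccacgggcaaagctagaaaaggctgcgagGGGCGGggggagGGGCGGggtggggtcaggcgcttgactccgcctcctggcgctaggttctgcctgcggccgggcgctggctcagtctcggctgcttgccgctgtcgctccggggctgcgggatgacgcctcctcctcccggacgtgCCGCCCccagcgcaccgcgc
Plxnc1, receptor of Sema7a, chr7:31430556-31430855, minus strand: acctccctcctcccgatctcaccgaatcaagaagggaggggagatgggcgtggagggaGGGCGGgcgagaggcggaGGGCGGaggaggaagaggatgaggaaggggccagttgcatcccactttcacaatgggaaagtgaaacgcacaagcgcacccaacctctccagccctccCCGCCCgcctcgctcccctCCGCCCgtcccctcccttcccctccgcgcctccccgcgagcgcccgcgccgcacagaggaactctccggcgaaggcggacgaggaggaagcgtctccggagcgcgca
Nrp1, neuropilin 1, chr19:73256307-73256606, plus strand: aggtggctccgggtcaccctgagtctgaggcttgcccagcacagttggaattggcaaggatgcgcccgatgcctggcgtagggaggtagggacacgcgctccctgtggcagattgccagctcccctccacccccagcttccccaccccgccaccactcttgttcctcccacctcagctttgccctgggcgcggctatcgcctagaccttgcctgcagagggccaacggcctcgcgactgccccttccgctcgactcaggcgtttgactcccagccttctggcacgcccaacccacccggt
Nrp2, neuropilin 2, chr9:71617004-71617303, plus strand: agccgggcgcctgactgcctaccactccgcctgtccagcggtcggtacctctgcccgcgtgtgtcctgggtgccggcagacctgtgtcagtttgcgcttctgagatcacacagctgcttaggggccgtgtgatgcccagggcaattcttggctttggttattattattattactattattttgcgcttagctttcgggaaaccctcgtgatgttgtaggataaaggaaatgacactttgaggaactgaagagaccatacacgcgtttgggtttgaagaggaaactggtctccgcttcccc

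In these windows, GC boxes were found 2 times for Sema3e, 3 times for Plxnd1, 3 times for Sema7a and 4 times for Plxnc1, and neither neuropilin window held one. Over the family 23 of 31 genes had a promoter in the table, and 13 of these 23 held a GC box, compared with 34.9% of 27457 promoters of the same length. No member promoter held TATAAA, found in 14.3% of all promoters, and 6 held CCAAT, found in 37.7%. CACGTG was in 2 of the 23 and in 6.65% of all promoters, while TGACGTCA was in none of the 23 and in 1.91% of all. Each motif was searched on both strands, and the last 2 share the letters ACGT. The median GC content was 61.0% in the member promoters and 52.3% in all promoters, with medians of 16 and 7 CG dinucleotides. A match in letters is a description and shows no binding.

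The 4 arrays held 29214 probe sets each and had median intensities of 40.9 to 41.7. Signal was called above background where it exceeded the 95th percentile of 1272 genes for olfactory or vomeronasal receptors on that array, which was 42.6 and 36.3 intensity units on the PHF6 shRNA arrays (duplicates 1 and 2), against 43.7 and 34.7 on the control shRNA arrays. The targeted gene, Phf6, read 34.4 and 31.3 on the PHF6 shRNA arrays and 32.8 and 34.3 on the control shRNA arrays, below background on all 4, so it gives no check of the knockdown, and directions rest on the labels. Of the 31 members, 28 were above background on at least 2 arrays, 18 ligands and 10 receptors. Sema3d, Sema3g and Plxnb3 were above it on no array. Markers shared by neurons, such as Map2, Tubb3 and Snap25, were above background on all 4 arrays in 10 of 10 genes.

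Semaphorin ligands were mostly lower with PHF6 shRNA. Of 20 ligands 15 had a negative difference, with a median of -0.10 log2 units (PHF6 shRNA minus control shRNA), where the median of all named genes was -0.0066 and 52.3% were negative. Among genes above background on at least 2 arrays, as 18 of the ligands were, the median was -0.039 and 58.5% were negative. In the brightest 25% of named genes these were -0.084 and 66.0%. In 9 ligands both PHF6 shRNA arrays were below both control shRNA arrays, and in 0 ligands both were above. Over all named genes these shares were 21.7% below and 16% above, and among genes above background on at least 2 arrays they were 29.5% and 15.4%. No member passed limma's test without a covariate (adjusted p under 0.05 over all named genes), and 0% of the 17245 named genes did. At an unadjusted p under 0.05 stood 9 members, 6 of them lower and 3 higher, against 10.8% of all genes, 7.52% lower and 3.28% higher. The adjusted result depends on the fit. With the duplicate number added as a block, 909 genes (5.27%) and 9 members passed the adjusted threshold. No label states that these numbers pair the arrays. With 2 arrays in each group an exact test of a single gene cannot give a two-sided p below 0.333.

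Sema7a, the lipid-anchored semaphorin that binds plexin C1 and beta-1 integrins and promotes axon growth, read 911 and 937 intensity units on the PHF6 shRNA arrays, against 1185 and 1263 on the control shRNA arrays. The groups were apart by more than the spread within either. The difference was -0.40 ± 0.09 log2 units (SE), or 1.32-fold lower, with a limma adjusted p of 0.24 and an unadjusted p of 0.0041.

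Sema3e, a secreted semaphorin that binds plexin D1 without needing a neuropilin, read 40.0 and 39.4 with PHF6 shRNA and 53.1 and 51.3 with control shRNA. The duplicates lay close together in both groups, but the signal was dim. On PHF6 shRNA duplicate 1 it was below the background level, so the 1.32-fold difference is not exact (-0.39 ± 0.08 log2 units, limma adjusted p = 0.24).

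The class 6 semaphorins, transmembrane ligands of the plexins A, had negative differences in 4 of 4 genes. So had 52.3% of all named genes and 66.0% of the brightest 25%. In 3 of the 4 (Sema6a, Sema6b and Sema6d, all in that bright fraction) both PHF6 shRNA arrays were lower without overlap. This held for 21.7% of all named genes and 38.9% of the brightest 25%. None of the 4 passed limma's adjusted threshold without the block. Sema6b, a ligand of plexin A4, read 350 and 282 with PHF6 shRNA, against 462 and 420 with control shRNA. Its difference of -0.49 ± 0.13 log2 units was the most negative among the 20 ligands (limma adjusted p = 0.30). Sema6d, which binds plexin A1, read 219 and 276 against 293 and 343, a difference of -0.37 ± 0.15, which ran from -0.53 to -0.20 when each array was left out in turn. Sema6a, which binds the plexins A2 and A4, read 564 and 604 with PHF6 shRNA, against 653 and 727 with control shRNA, a difference of -0.24 ± 0.10. These 2 genes had limma adjusted p-values of 0.46 and 0.47. Sema6c overlapped between the groups, at -0.03, and was positive after a further quantile normalization, after cyclic loess and without PHF6 shRNA duplicate 1 (0.0088, 0.030 and 0.0098).

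Sema4c, a ligand of plexin B2, was the only one of the 6 class 4 semaphorins without overlap. Of genes above background on at least 2 arrays, as all 6 were, 29.5% were lower without overlap. Sema4c read 86.0 and 90.7 with PHF6 shRNA, against 107 and 121 with control shRNA, a difference of -0.37 ± 0.10 (limma adjusted p = 0.31). Its second probe set, below the background level on all 4 arrays, differed by 0.02. The other class 4 genes ran from -0.14 (Sema4d, the ligand of plexin B1) to 0.11 (Sema4a) with overlapping arrays.

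Among the 7 secreted class 3 genes, Sema3a, the classical axon repellent that signals through neuropilin 1, read 163 and 176 with PHF6 shRNA, against 178 and 235 with control shRNA. One PHF6 shRNA array came close to the lower control shRNA array, and the difference was -0.27 ± 0.15 log2 units (limma adjusted p = 0.64). Sema3c, a secreted guidance cue for cortical axons, read 285 and 239 against 302 and 294, a difference of -0.19 ± 0.11. Sema3f, a repellent that signals through neuropilin 2, read 69.8 and 64.6 with PHF6 shRNA, against 70.2 and 76.7 with control shRNA, a difference of -0.13 ± 0.09. In Sema3c and Sema3f, too, 1 PHF6 shRNA array lay close to a control shRNA array. Leaving out each array in turn gave -0.47 to -0.07 for Sema3a, -0.32 to -0.07 for Sema3c and -0.19 to -0.06 for Sema3f. Sema3b, near background, differed by 0.06.

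Sema5a, a transmembrane semaphorin with thrombospondin repeats, had the most positive difference of the ligands, 0.47 ± 0.31, but its PHF6 shRNA duplicates differed by more than its groups. It read 211 and 114 with PHF6 shRNA, against 128 and 97.2 with control shRNA (limma adjusted p = 0.73). Sema5b differed by 0.10 and overlapped as well.

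**Figure D1:**
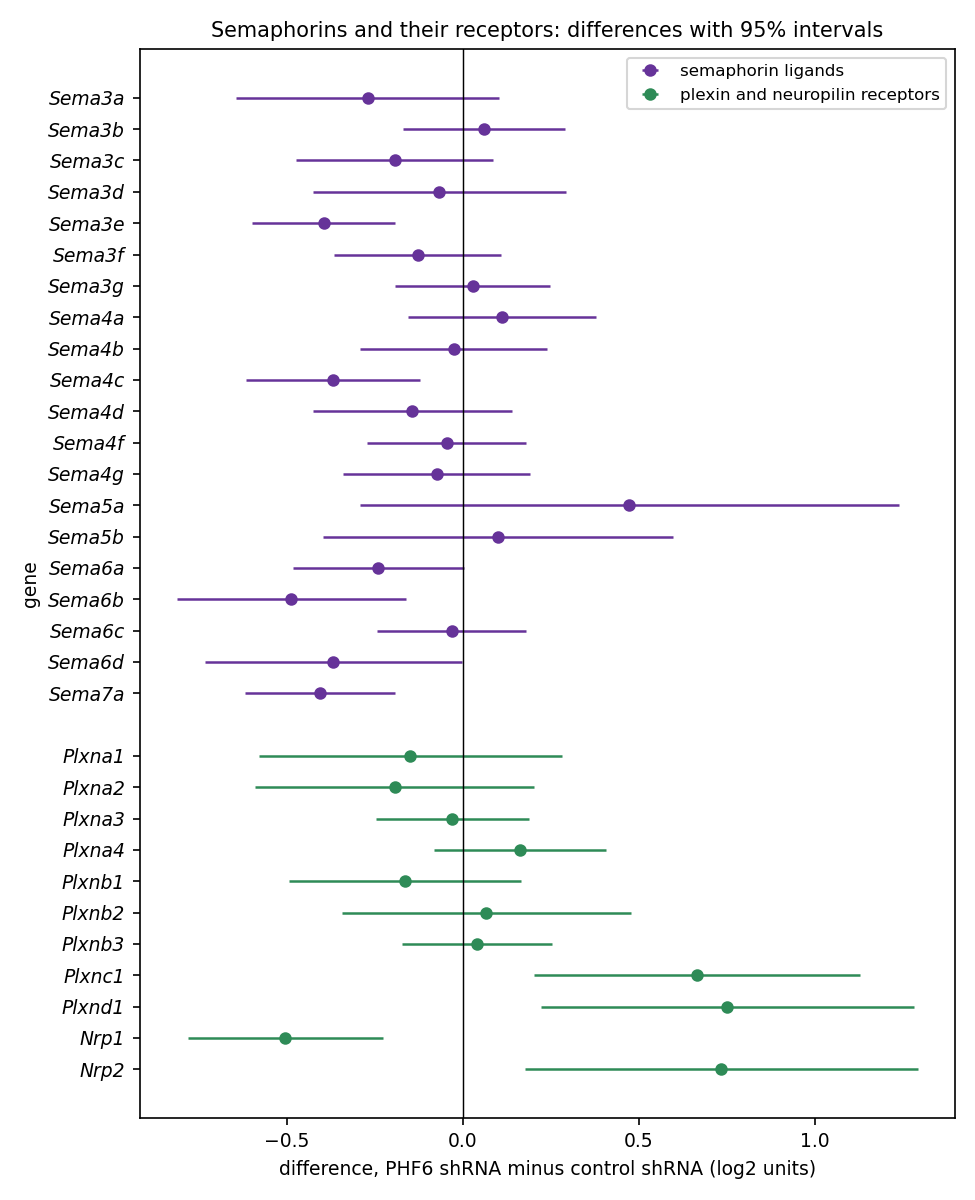
Difference between PHF6 shRNA and control shRNA in log2 units (x axis) for the 31 genes (y axis), with limma's 95% intervals from 2 arrays a group, ligands in purple and receptors in green. The lowest ligand is Sema6b at -0.49, and Plxnd1, Nrp2 and Plxnc1 are the 3 highest receptors at 0.75, 0.73 and 0.67.

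Receptors went both ways and held the largest differences in the family. Of 11 receptors 6 had a positive and 5 a negative difference, with a median of 0.04 log2 units, where 52.3% of all named genes were negative. The groups did not overlap in 5, of which 4 were higher with PHF6 shRNA (Plxnd1, Nrp2, Plxnc1 and Plxna4) and 1 lower (Nrp1). Without overlap 16% of all named genes were higher and 21.7% lower. Among genes above background on at least 2 arrays these shares were 15.4% and 29.5%. At least 1.5-fold higher without overlap were 3 of 11 receptors, where 0.707% of all named genes were. None of the 20 ligands was at least 1.5-fold lower without overlap, as 0.69% of all named genes were.

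Plxnd1, the receptor of Sema3e, read 223 and 232 with PHF6 shRNA, against 108 and 169 with control shRNA. The PHF6 shRNA duplicates were close together and the control shRNA duplicates far apart, with SDs of 0.04 and 0.46 log2 units. The difference was 0.75 ± 0.21, or 1.68-fold (limma adjusted p = 0.32, unadjusted 0.014).

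Plxnc1, the receptor of Sema7a, read 333 and 369 with PHF6 shRNA, against 184 and 265 with control shRNA. The difference was 0.67 ± 0.18 log2 units, or 1.59-fold (limma adjusted p = 0.32). Control shRNA duplicate 1 was the lowest array for both of these plexins.

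Plexins A, the signalling partners of the neuropilins and receptors of class 6 semaphorins, stayed close to 0. Plxna4 read 512 and 523 with PHF6 shRNA, against 433 and 492 with control shRNA, a difference of 0.16 ± 0.10 (limma adjusted p = 0.69) that ran from 0.07 to 0.26 when each array was left out in turn. Plxna1, Plxna2 and Plxna3 differed by -0.15, -0.19 and -0.03 with overlapping arrays. Their 95% intervals reached from -0.59 to 0.28 log2 units, so a moderate difference in either direction could not be seen at this number of arrays. Among plexins B, Plxnb1 differed by -0.16 and Plxnb2 by 0.07, both with overlap, and Plxnb3 was below background, at 23.4 and 21.9 with PHF6 shRNA and 21.9 and 22.2 with control shRNA.

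The neuropilins differed in opposite directions. Nrp1, the co-receptor for Sema3a, read 122 and 107 with PHF6 shRNA, against 172 and 152 with control shRNA. Nrp2, the co-receptor for Sema3f, read 107 and 143 with PHF6 shRNA, against 61.7 and 90.1 with control shRNA. The groups were apart for both genes, by -0.50 ± 0.11 log2 units (1.42-fold lower, limma adjusted p = 0.25) and 0.73 ± 0.22 (1.66-fold higher, limma adjusted p = 0.35). The ratio of Nrp2 to Nrp1 signal was 0.883 and 1.33 on the PHF6 shRNA arrays, against 0.358 and 0.591 on the control shRNA arrays, a shift of 1.24 log2 units or 2.36-fold. This ratio was picked after its values were seen and was not tested, and because probe sets differ in brightness it shows an unequal difference and not which neuropilin is more abundant.

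**Figure D2:**
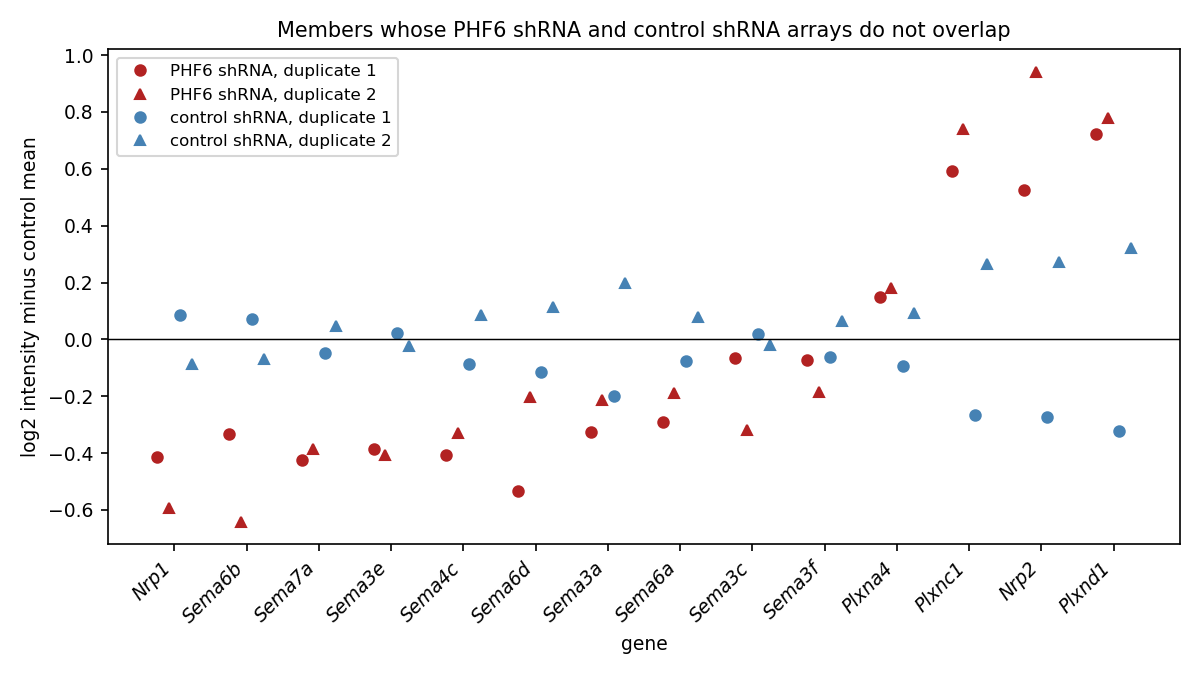
Log2 intensity minus the control shRNA mean (y axis) on each of the 4 arrays for the 14 genes whose groups do not overlap (x axis), PHF6 shRNA in red and control shRNA in blue, circles for duplicate 1 and triangles for duplicate 2. The 10 genes on the left are lower with PHF6 shRNA, and Plxnc1, Nrp2 and Plxnd1 on the right show the widest gap between control shRNA duplicates.

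Known ligand and receptor pairs were set side by side. In 5 of 12 pairs the ligand had a negative and the receptor a positive difference. Of all 20 ligands 15 were negative and of all 11 receptors 6 were positive, so a count of this size says little about pairing. Sema3e differed by -0.39 and Plxnd1 by 0.75, Sema7a by -0.40 and Plxnc1 by 0.67, and Sema3f by -0.13 and Nrp2 by 0.73. The other listed pairs of this kind were Sema4c with Plxnb2 (-0.37 and 0.07) and Sema6a with Plxna4 (-0.24 and 0.16), whose receptors came closer to 0. Both genes were negative in Sema3a with Nrp1 (-0.27 and -0.50) and Sema4d with Plxnb1 (-0.14 and -0.16). The same held for Sema6a with Plxna2 (-0.24 and -0.19) and Sema6d with Plxna1 (-0.37 and -0.15). In the remaining pairs, those of Sema5a and Sema5b, the ligand was positive. The list of 12 is not complete: Sema6b (-0.49), also a ligand of plexin A4, was not in it. The pairs share ligands and receptors with one another and were listed with the values known, so this is a description without a test.

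**Figure D3:**
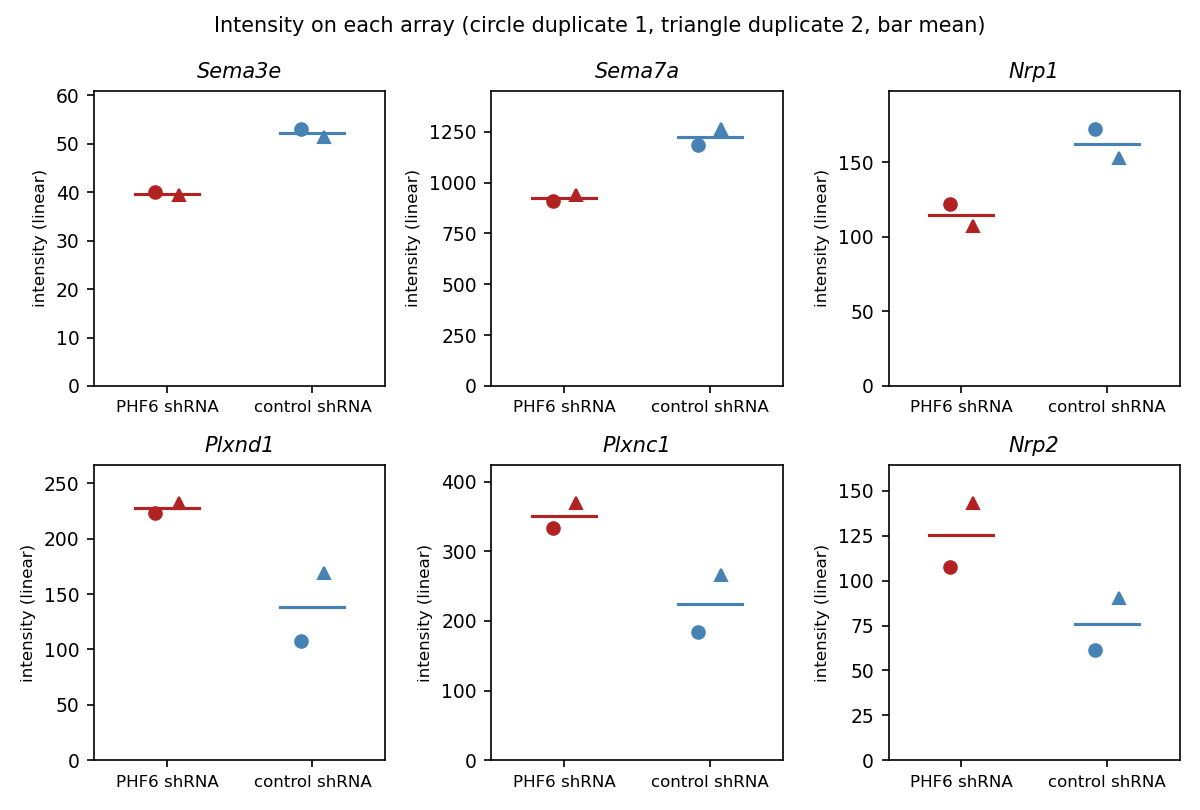
Intensity on a linear scale from 0 (y axis) on each array for Sema3e over its receptor Plxnd1, Sema7a over its receptor Plxnc1, and Nrp1 over Nrp2, PHF6 shRNA in red left of control shRNA in blue, with bars at the means of 2 arrays. The upper 3 genes are lower and the lower 3 genes higher on both PHF6 shRNA arrays than on both control shRNA arrays.

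Bright genes in general were lower with PHF6 shRNA: in the brightest 25% of named genes the median difference was -0.08 log2 units, and 38.9% were lower and 13.8% higher without overlap. In this bright fraction were 6 ligands (Sema3a, Sema3c, Sema6a, Sema6b, Sema6d and Sema7a), all 6 lower without overlap, and 7 receptors, 3 of them higher and 0 lower without overlap. With cyclic loess scaling 6 ligands were lower and 5 receptors higher without overlap, where 19.5% of all genes were lower and 19.6% higher. Leaving out control shRNA duplicate 1 brought the differences of Plxnd1, Plxnc1 and Nrp2 to 0.43, 0.40 and 0.46 log2 units and the receptor median to -0.08, and leaving out control shRNA duplicate 2 brought them to 1.07, 0.93 and 1.01.

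**Figure D4:**
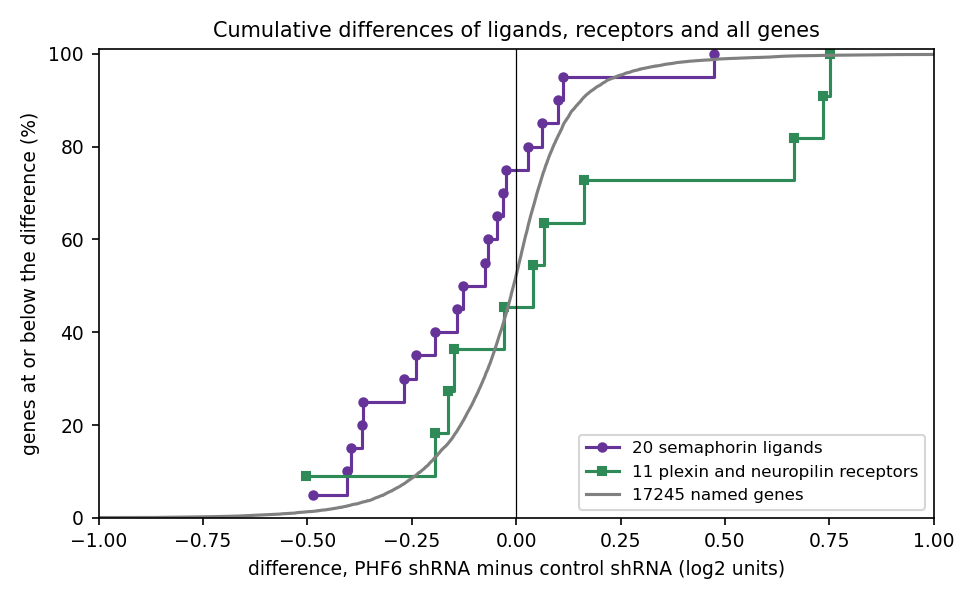
Cumulative share of genes (y axis, percent) at or below each difference between PHF6 shRNA and control shRNA in log2 units (x axis) for 20 ligands in purple, 11 receptors in green and 17245 named genes in grey. The ligand curve crosses 50% left of the curve of all genes (median -0.10 against -0.0066), and 3 receptors lie beyond 0.6.

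Other genes of the pathway were listed by role, and 0 of them passed the adjusted threshold of limma's test without the block. Their results with the block are not given here. Of 13 co-receptors and cell-surface partners 11 were measured, 9 with a positive and 2 with a negative difference, where 52.3% of all named genes were negative. Above background on at least 2 arrays were 7, while Mst1r, Erbb2 and Trem2 were above it on no array. Without overlap 3 were higher, Erbb2 among them, and 1 lower, where 16% and 21.7% of all named genes were. Itgb1, the beta-1 integrin through which Sema7a also signals, read 424 and 392 with PHF6 shRNA, against 267 and 307 with control shRNA, a difference of 0.51 ± 0.11 (limma adjusted p = 0.24, unadjusted 0.0038). L1cam, an adhesion molecule that partners neuropilin 1 in the response to Sema3a, read 798 and 846 against 1000.1 and 1041, a difference of -0.31 ± 0.09 (limma adjusted p = 0.31). Met, a receptor kinase that associates with plexin B1, differed by 0.39 ± 0.24 with overlap.

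Of 32 intracellular effectors 31 were measured, 30 of them above background on at least 2 arrays, with 20 negative and 11 positive differences and a median of -0.09 log2 units. Without overlap 14 of the 31 were lower and 2 higher, where 29.5% of all genes above background and 38.9% of the brightest 25% were lower, so the count lower is near that of bright genes in general. Farp2, a Rac exchange factor that binds plexin A1 and takes part in repulsion by Sema3a, went the other way and read 48.8 and 47.6 with PHF6 shRNA, against 36.7 and 37.6 with control shRNA (0.38 ± 0.08, limma adjusted p = 0.24). Control shRNA duplicate 1 was below background there. Its relative Farp1, which acts with plexin A4 in dendrite growth, read 216 and 282 against 331 and 370 (-0.50 ± 0.15, limma adjusted p = 0.34). Cdk5, a kinase in the response to Sema3a, differed by -0.35 ± 0.09, and Pak1, a kinase activated by Rac, by -0.31 ± 0.09, both without overlap. The collapsin response mediator Dpysl2, which carries the Sema3a signal to microtubules, differed by 0.02.

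In the gene order of RefSeq's GRCr8 assembly, used here for neighbours only, several members lie close together. Sema3c, Sema3e, Sema3a and Sema3d follow one another on chromosome 4 with 4, 12 and 0 other protein-coding genes between them. The first 3 were lower without overlap and Sema3d was below background. Lower without overlap were also 29.5% of genes above background on at least 2 arrays. In the brightest 25% of named genes, which held Sema3a and Sema3c, the share was 38.9%. A link between position and difference was not tested. Sema3b and Sema3f on chromosome 8 are 3 genes apart and differed by 0.06 and -0.13.

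Duplicates differed from each other in a way that touched the same receptors. Duplicate 2 minus duplicate 1, Nrp2 differed by 0.41 log2 units within PHF6 shRNA and 0.55 within control shRNA, Plxnc1 by 0.15 and 0.53, and Plxnd1 by 0.06 and 0.65. Sema5a was lower in duplicate 2 in both groups, by -0.89 and -0.40. Between duplicates Nrp1 varied by -0.18 and -0.17, Sema7a by 0.04 and 0.09, and Sema3e by -0.02 and -0.05, all smaller in size than their differences between the groups. The duplicate differences of Nrp2, Plxnc1 and Plxnd1 were also smaller than their differences between the groups (0.73, 0.67 and 0.75). Within control shRNA they came closer to these.

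Markers of the cells a cortical culture can hold were read beside these results. In bulk RNA, fewer cells of a type and less RNA per cell cannot be told apart. Shared neuronal markers were negative in 8 of 10 genes, as the ligands mostly were. Of the brightest 25% of named genes 66.0% were negative as well. Elavl4 went the other way, at 0.43 log2 units without overlap. The summed intensity of these neuronal markers was 11692 to 12109 on the PHF6 shRNA arrays, against 13051 to 13153 on the control shRNA arrays. Astrocyte markers were positive in 7 of 7 genes, as Plxnd1, Plxnc1 and Nrp2 were, with sums of 895 to 1488 against 663 to 1247, and in 6 of the 7 the groups overlapped. The exception was Slc1a2, at 0.98 log2 units, while Gfap and Gja1 differed by 0.009 and 0.034. In both groups the astrocyte sum was higher in duplicate 2. The part of neuronal and astrocyte cells in the differences of the ligands and receptors was not tested. Interneuron markers were positive in 7 of 8 genes, with sums of 3129 to 3818 against 2726 to 3593, and excitatory neuron markers in 4 of 6, with sums of 3103 to 3487 against 3025 to 3254. Among the excitatory markers Slc17a6 was lower without overlap, at -0.69 log2 units, with 55.6 and 47.0 against 85.2 and 79.2 (limma adjusted p = 0.23). Tbr1 was higher without overlap, at 0.06. Oligodendrocyte lineage markers were positive in 3 of 9 genes (382 to 481 against 403 to 497) and microglial markers in 3 of 8 (229 to 247 against 224 to 247). Fibroblast and mural markers were positive in 6 of 6 genes (285 to 294 against 271 to 283), but Col1a1 and Lum by only 0.0008 and 0.0006 log2 units. Above background on no array were 3 of these 6 markers and 5 of the 8 microglial ones. So were 3 of the 9 oligodendrocyte lineage and 2 of the 8 interneuron markers. Counts of signs in these lists therefore include genes at background, and of all named genes 52.3% were negative. Endothelial cells are a known site of Plxnd1 and Sema3g expression, and 0 of 6 endothelial markers were above background on any array.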

How the data were processed

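Total RNA of cultured rat cortical neurons was extracted with Trizol, labelled with biotin and hybridised to 1-colour whole-transcript Affymetrix arrays, per the labels' protocols. The submitters' processing notes name RMA as the method by which the authors obtained the deposited intensities, without its version. The values span 8.57 to 6121, a linear scale, and were converted to log2 before testing. RMA compresses differences of dim probe sets.

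Of 29214 rows 18644 carry 1 gene symbol, 962 several and 9608 none in the annotation used. Symbols were updated by gene identifier for 18460 rows (RefSeq, GRCr8). The brightest probe set stood for each of the 879 genes that have several. Groups, taken from the titles, were compared with lmFit and eBayes of limma 3.58.1 under R 4.3.3 (2-sided, no filter, no covariate, Benjamini-Hochberg adjustment over 17245 genes). On simulated independent arrays the fit recovered 98% of planted 2-fold changes, with 18 false calls. Planted changes were larger than the largest member difference, 1.68-fold, and variation shared by same-numbered arrays was not simulated. The simulation therefore does not show how well differences of the size seen here are found. Scanner files and detection calls were not used here, and precision is limited by the number of arrays. No 2 arrays shared more than 11 identical values.

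The members and gene lists were chosen with earlier results of these data known. All members are reported. Values per array are given for members without overlap or with an unadjusted p under 0.05, with a few others added after their values were seen. Up to 4 other genes per pathway list were named by smallest p, and Dpysl2 was added after its value was seen. Alternatives were a block for the duplicate number, leaving out each array, 3 scalings, 2 filters on dim genes, a variance trend, array weights, the mean of probe sets, all rows, an offset of 16 and a threshold of 0.10.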

Additional observations from a re-analysis of the deposited data

How the results depend on the processing

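The labels give both groups the same duplicate numbers without stating a pairing. Over all genes the same-numbered arrays' deviations from their group means correlated at 0.57. With the duplicate number as a replicate block 909 genes passed limma's adjusted threshold (5.27%), 605 lower and 304 higher, and 9 members: Sema3e, Sema4c, Sema6b, Sema6d, Sema7a and Nrp1 lower, and Plxnc1, Plxnd1 and Nrp2 higher. The block did not move any difference. Leaving out 1 array gave 0 to 90 genes past the threshold (90 without PHF6 shRNA duplicate 2, 2 without PHF6 shRNA duplicate 1) and 0 members. These fits leave 1 array in a group, which is assumed to vary like the others. In the other alternatives, and at a threshold of 0.10, 0 members passed.

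The ligand median ran from -0.18 to -0.06 over the alternatives and the receptor median from -0.08 to 0.06. With quantile normalization, median centring and cyclic loess, comparisons added after the data were seen, 8, 10 and 6 ligands were lower without overlap, where 20.7%, 22% and 19.5% of all genes were, and 5, 4 and 5 receptors higher, where 18%, 13.6% and 19.6% were. Of the 31 members 19 kept their sign in each alternative that gave them a value, among them the 14 without overlap. The other 12, all within overlap, changed sign in at least 1 alternative. Without 1 array their differences ran -0.0026 to 0.13 (Sema3b), -0.23 to 0.10 (Sema3d), -0.035 to 0.091 (Sema3g), -0.14 to 0.088 (Sema4b), -0.10 to 0.0098 (Sema4f), -0.16 to 0.014 (Sema4g), -0.14 to 0.34 (Sema5b), -0.073 to 0.0098 (Sema6c), -0.36 to 0.060 (Plxna1), -0.085 to 0.026 (Plxna3), -0.17 to 0.30 (Plxnb2), -0.0089 to 0.089 (Plxnb3). Further quantile normalization and cyclic loess gave 0.0094 and 0.033 for Sema4b, 0.0088 and 0.030 for Sema6c, and 0.036 and 0.061 for Plxna3, and cyclic loess gave 0.0092 for Sema4f. Sema3d, Sema3g and Plxnb3 had no value under 1 or both filters on dim genes.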
